A study of Mus musculus with 5 samples.

Results

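The filamins, α-actinins, talins, vinculin and zyxin are structural proteins that connect integrins at the cell membrane to actin filaments inside the cell. Talin binds the cytoplasmic tail of the β integrin subunit and reaches to actin with its rod, vinculin strengthens that link by binding both talin and actin, α-actinin and filamin cross-link the filaments, and zyxin, a LIM domain protein, comes to adhesions and stress fibres under tension. Many of the genes of this machinery are driven by serum response factor (SRF), whose coactivators respond to the pool of unpolymerised actin, and ES cells grown on gelatin use integrin adhesions to attach and spread. The genes described here were chosen by name as the linkers between integrins and actin. They are Flna, Flnc, Actn1, Actn4, Tln1, Tln2, Vcl and Zyx, 8 of 55147 gene symbols, and all 8 were among the 12518 genes tested.

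RNA sequencing compared WT and C3G null E14Tg2a cells, a mouse ES cell line, to ask which genes differ in expression when C3G is lost. C3G is the exchange factor encoded by Rapgef1, which activates Rap1 and other small GTPases downstream of adhesion and growth factor receptors. Total RNA came from 3 samples of WT cells, the E14Tg2a parent line with an intact Rapgef1, and from 2 samples of C3G null cells (genotype C3G-/-). The C3G null cells were edited so that Rapgef1 carries a gene for puromycin resistance where exons 2 to 4 had been. Both groups grew on gelatin in GMEM with serum and LIF, with no treatment. The WT cells had not gone through nucleofection, puromycin selection and cloning, so effects of these steps and of the loss of C3G cannot be told apart here. The labels do not say whether the 2 C3G null samples are of the same clone or of different clones, and they name no separate cultures. The study calls the samples of each group independent, without saying in what respect. The p-values therefore measure only the spread between these samples, which may be technical.

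Expression was deposited as TPM, a measure of transcript abundance in which reads are set against the length of the transcript and all transcripts of a sample add up to the same total. The number of reads cannot be read back from TPM, so sequencing depth is unknown for these 5 samples and no interval for counting error is given. Small non-coding RNAs, counted together with ribosomal RNAs, those of mitochondria included, took a larger share of the TPM in the C3G null samples. The parts of this class are not given separately here. The share of the whole class was 62.9%, 63.5% and 67.2% in WT samples 1 to 3, against 77.8% and 69.6% in C3G null samples 1 and 2. Since the TPM of a sample have a fixed total, all other genes were pressed down with it, and protein-coding genes held 31.8%, 31.4% and 28.8% of the TPM in WT and 18.6% and 26.0% in C3G null samples. C3G null sample 1 stood apart the most. TPM were therefore divided by a median-of-ratios factor per sample, which was 1.39, 1.22 and 1.09 in WT and 0.627 and 0.885 in C3G null samples, and both the TPM as deposited and these scaled TPM are given. Over the 12518 tested genes the median log2 fold change went from -0.55 to 0.02 with this scaling. Fold changes are C3G null against WT on the scale of log2(TPM + 1), which understates the change of low genes, and adjusted p-values are from limma across all tested genes.

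Rapgef1 itself was listed at 11.56, 10.31 and 9.64 TPM in WT samples and at 3.92 and 5.55 TPM in C3G null samples. Both C3G null samples were below every WT sample, also after scaling, at 8.32, 8.43 and 8.81 against 6.25 and 6.27 scaled TPM. Rapgef1 fell by 0.39 on the log2 scale of scaled TPM (SE 0.07, limma adjusted p = 0.00841). With the length and GC correction described further on the difference was -0.14 and did not pass the test (limma adjusted p = 0.168). The value sums transcripts over the whole gene, most of which lies outside the replaced exons, so it checks the labels only in part.

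The ES cell label was checked against its markers. All 10 ES cell marker genes were tested. With scaled TPM none fell, and Fbxo15 and Dppa5a rose, with 3 higher and 0 lower at an unadjusted p under 0.05 by limma. In the same test 12.8% of all tested genes rose and 14.9% fell. Both rises depend on the scaling: with TPM as deposited the differences were 0.05 (limma adjusted p = 0.871) for Fbxo15 and 0.01 (limma adjusted p = 0.977) for Dppa5a. With the length and GC correction 2 of the 10 were again higher and none lower, beside 13.7% and 15.2% of all tested genes: Fbxo15 passed (0.67, limma adjusted p = 0.00266), Dppa5a did not (0.46, limma adjusted p = 0.0533), and Esrrb passed (0.32, limma adjusted p = 0.0129), which it did not with scaled TPM (0.14, limma adjusted p = 0.271). Their summed level was 2281, 2400 and 2344 TPM in WT and 1811 and 2376 TPM in C3G null samples. The list was led by Dppa5a, and Pou5f1, the core pluripotency factor, was at 357.45, 371.28 and 399.76 TPM in WT and 229.58 and 298.49 TPM in C3G null samples. After scaling Pou5f1 was at 257, 304 and 365 in WT and at 366 and 337 in C3G null samples, a difference that did not pass the test (0.20, limma adjusted p = 0.427). Of the 9 fibroblast markers only Thy1 and Col1a1 were abundant enough to be tested, both were lower in C3G null cells, beside 14.9% of all tested genes, Col1a1 having passed the filter on low values through the WT samples alone, and the whole list summed to 6.05, 5.67 and 4.19 TPM in WT and 1.09 and 1.59 TPM in C3G null samples. None of the 8 striated muscle markers could be tested, the highest value of any of them being 1.07 TPM. The values of the smooth muscle markers are given with the actin genes.

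Most of the linker genes were less expressed in C3G null cells. With scaled TPM 6 of the 8 genes fell (Flnc, Zyx, Actn1, Vcl, Tln1 and Flna), and Actn4 and Tln2 did not pass the test. Among the 6, Flnc passed the filter on low values through the WT samples alone. In the same test 14.9% of all tested genes were lower and 12.8% were higher in C3G null cells. No linker gene rose, and none was higher at an unadjusted p under 0.05 by limma, while 7 were lower at that level. The median log2 fold change of the 8 genes was -0.76, against 0.02 over all tested genes. With TPM as deposited 7 of the 8 fell and none rose, but there 56.8% of all tested genes were lower and 1.45% higher, and the median of the 8 was -1.43 against -0.55 over all tested genes. The losses were uneven: scaled levels in C3G null cells ranged from 10.6% of the WT mean for Flnc to 117% for Tln2. In these bulk samples fewer cells that express a gene and less RNA of it per cell cannot be told apart.

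**Figure D1:**
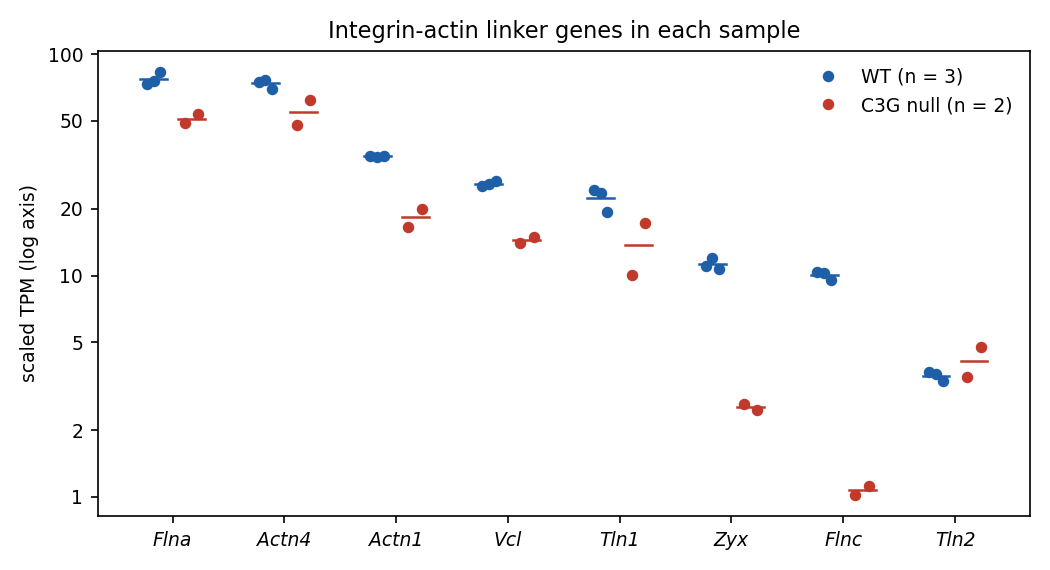
Scaled TPM (log axis) of the 8 linker genes in each WT sample (blue, n = 3) and C3G null sample (red, n = 2), with bars at the group means and genes in the order of their WT level. The groups lie furthest apart for Flnc and Zyx, which drop below Tln2 in C3G null cells, and Tln2 itself overlaps between the groups.

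Filamins are long dimeric rods that join actin filaments into networks and bind β integrin tails. Flna (chrX:74223461-74249820, minus strand, GRCm38), the widely expressed filamin A, was at 101.86, 92.75 and 91.03 TPM in WT and at 30.57 and 47.52 TPM in C3G null samples. After scaling it was at 73.3, 75.9 and 83.2 in WT and at 48.7 and 53.7 in C3G null samples. Every C3G null sample lay below every WT sample on both scales, and the gap after scaling, between 53.7 and 73.3, was wider than the spread within either group. Flna fell by 0.59 on the log2 scale of scaled TPM (SE 0.10, limma adjusted p = 0.0084) and by 1.30 with TPM as deposited. Its level was 77.5 ± 5.13 scaled TPM (SD, n = 3) in WT and 51.2 ± 3.50 scaled TPM (SD, n = 2) in C3G null cells.

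Flnc (chr6:29433256-29461883, plus strand), filamin C, is known as the filamin of striated muscle, where it sits at Z discs and the membrane. It was at 14.45, 12.62 and 10.43 TPM in WT and at 0.64 and 0.99 TPM in C3G null samples. Scaled, it was at 10.4, 10.3 and 9.53 against 1.02 and 1.12. The WT samples were close together, and both C3G null samples lay far below them, at about the level of the filter on low values, which Flnc passed through the WT samples. Flnc fell by 2.42 on the log2 scale of scaled TPM (SE 0.07, limma adjusted p = 1.87e-05) and by 2.89 with TPM as deposited. The ratio of the scaled means, WT to C3G null, was 9.43, and only 0.144% of the tested genes had a lower log2 fold change. The 8 striated muscle markers above were at no more than 1.07 TPM in any sample. The striated muscle actin Acta1, of the actin and SRF list, was present in WT, at 11.26, 10.12 and 10.38 TPM, and was at 0.17 and 0.17 TPM in C3G null samples, and Actc1 was at 2.72, 3.05 and 2.91 TPM in WT and at 0.17 and 0.17 TPM in C3G null samples. Both actins were thus low in the same samples as Flnc, and were named after their values were seen. Like Flnc, both passed the filter on low values through the WT samples alone, so no conclusion is drawn from this match.

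The proportion of Flnc to Flna can be read within each sample, where scaling has no part. The ratio of Flnc to Flna was 0.142, 0.136 and 0.115 in WT samples and 0.0209 and 0.0208 in C3G null samples. It was lower in both C3G null samples, by -2.64 on the log2 scale. The exact permutation test used here takes its two-sided p by doubling the smaller tail. With 3 samples against 2 it cannot then go below 0.2, which is what this ratio gave, raw and adjusted over the 3 ratios examined.

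The α-actinins are antiparallel dimers that cross-link actin and bind integrin tails, vinculin and zyxin, and Actn1 and Actn4 encode the non-muscle forms. Actn1 (chr12:80167547-80260371, minus strand) was at 48.36, 42.11 and 37.85 TPM in WT and at 10.43 and 17.73 TPM in C3G null samples. Scaled, it was at 34.8, 34.4 and 34.6 against 16.62 and 20.03. The WT samples became almost equal after scaling, and both C3G null samples lay far under them. Actn1 fell by 0.89 (SE 0.10, limma adjusted p = 0.00143) on the log2 scale of scaled TPM and by 1.57 as deposited.

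Actn4 (chr7:28893248-28962340, minus strand), which is also found in the nucleus, was at 104.49, 93.35 and 76.59 TPM in WT and at 29.93 and 55.01 TPM in C3G null samples. The scaled values were 75.2, 76.4 and 70.0 against 47.7 and 62.1. C3G null sample 2 came near to the lowest WT sample, and the 2 C3G null samples were further apart than the WT samples were. The difference of -0.43 (SE 0.13) just missed the threshold of 0.05 with scaled TPM (limma adjusted p = 0.0514), and passed it with TPM as deposited (-1.14, limma adjusted p = 0.000313). Without C3G null sample 1 it was -0.24 (limma adjusted p = 0.207), and without C3G null sample 2 it was -0.62 and passed (limma adjusted p = 0.0268). The ratio of Actn1 to Actn4 within samples was 0.463, 0.451 and 0.494 in WT and 0.348 and 0.322 in C3G null samples. The ratio was lower in both C3G null samples, with no overlap (-0.48 on the log2 scale, exact permutation p = 0.2, the smallest that this doubled-tail test can give). The main transcripts of Actn1 and Actn4 share 16 windows of 50 bases, 0.612% and 0.418% of their windows, so few reads could belong to either gene. The main transcripts of the other 6 genes shared no such window with another gene in the same orientation. The search read transcripts in their own direction only, so overlaps with genes on the other strand are not counted in it. Exons of Capn12, on the other strand, cover 316 of the 3877 bases of the main Actn4 transcript, but Capn12 was at no more than 0.62 TPM in any sample.

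Of the muscle α-actinins, Actn2 did not pass the filter, with values from 0.41 to 0.88 TPM over the 5 samples. Actn3, the form of fast muscle fibres, was at 1.62, 1.54 and 1.36 TPM in WT and at 1.81 and 2.83 TPM in C3G null samples. It was low throughout but higher in both C3G null samples, and it rose by 0.86 with scaled TPM (limma adjusted p = 0.000616), while with TPM as deposited the difference of 0.39 did not pass the test (limma adjusted p = 0.0728).

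Talins activate integrins and carry the first link to actin, Tln1 being the widespread form and Tln2 a close relative best known from muscle and brain. Tln1 (chr4:43531519-43562691, minus strand) was at 34.00, 28.84 and 21.18 TPM in WT and at 6.34 and 15.34 TPM in C3G null samples. Scaled, it was at 24.5, 23.6 and 19.4 against 10.1 and 17.3. The groups did not overlap, but both were spread wide, and C3G null sample 2 lay close to WT sample 3. Tln1 fell by 0.71 on the log2 scale of scaled TPM (SE 0.21, limma adjusted p = 0.0478), only just past the threshold, and by 1.38 as deposited. The fall of scaled TPM depends on which C3G null sample is kept: without C3G null sample 1 it was -0.35 and did not pass (limma adjusted p = 0.174), and without C3G null sample 2 it was -1.07 and passed (limma adjusted p = 0.0128). The call was also lost without WT sample 1 (limma adjusted p = 0.11) or WT sample 2 (limma adjusted p = 0.0752).

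The spread lay largely in short transcripts. Tln1-201, the full-length coding transcript of 8393 bases, was at 15.5, 15.2 and 14.7 scaled TPM in WT and at 6.46 and 8.08 scaled TPM in C3G null samples. These values were tight in WT, and both C3G null samples were far below them. Tln1-204, a non-coding transcript of 283 bases and 2 exons, was at 7.85, 6.56 and 1.95 TPM as deposited in WT and at 1.44 and 4.84 TPM in C3G null samples. The groups overlapped for this transcript, which differed within each group more than between them and held 19.5% of the gene's TPM in WT and 29.0% in C3G null cells, a large part for a length that few reads can cover. With the most abundant transcript of each gene in place of the sum, a choice made after seeing the data, the fall of Tln1 was -0.98 (limma adjusted p = 0.00233). The exons of Creb3, on the other strand, cover 91 of the 8393 bases of Tln1-201. Creb3 was at 8.12, 7.78 and 8.39 TPM in WT and at 2.44 and 3.17 TPM in C3G null samples, and its part in the value of Tln1 was not tested.

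Tln2 (chr9:67217087-67559703, minus strand) was at 5.07, 4.39 and 3.64 TPM in WT and at 2.18 and 4.2 TPM in C3G null samples. After scaling the values were 3.65, 3.59 and 3.33 against 3.47 and 4.74. C3G null sample 1 lay within the WT range after scaling and C3G null sample 2 above it, so the groups overlapped on both scales. The difference of 0.17 (SE 0.11) after scaling did not pass the test (limma adjusted p = 0.319), and it was -0.39 with TPM as deposited (limma adjusted p = 0.114), -0.04 with scaling to protein-coding TPM and -0.01 without C3G null sample 2. It was 0.36 without C3G null sample 1 (limma adjusted p = 0.0551) and passed as higher with the length and GC correction (0.43, limma adjusted p = 0.0147), so no direction can be given for it. The ratio of Tln1 to Tln2 was 6.71, 6.57 and 5.82 in WT samples and 2.91 and 3.65 in C3G null samples. Tln1 thus led Tln2 in every sample, and by less in both C3G null samples (-0.96 on the log2 scale, exact permutation p = 0.2, the smallest that this doubled-tail test can give).

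Vinculin, the product of Vcl (chr14:20929398-21033676, plus strand), binds stretched talin, α-actinin and actin. Vcl was at 35.21, 31.77 and 29.37 TPM in WT and at 8.79 and 13.23 TPM in C3G null samples. Scaled, it was at 25.3, 26.0 and 26.8 against 14.01 and 14.94. Each group was tight after scaling, with C3G null cells at 55.6% of the WT mean and no overlap. Vcl fell by 0.81 (SE 0.08, limma adjusted p = 0.00088) on the log2 scale of scaled TPM and by 1.48 as deposited. Vcl-201 held 95.9%, 97.5% and 97.4% of the TPM of the gene in WT and 98.1% and 97.9% in C3G null samples. The exons of Ap3m1, on the other strand, cover 2090 of the 5267 bases of Vcl-201, and the sources used here do not say whether the libraries kept the strand, so reads from that stretch may belong to either gene. Ap3m1 was at 26.94, 25.81 and 22.86 TPM in WT and at 11.92 and 19.38 TPM in C3G null samples, and its part in the value of Vcl was not tested.

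Chromosome 14 holds a stretch, from 40 to 80 Mb, in which 209 of 251 tested genes were lower and 2 higher in C3G null cells (median -0.70 after scaling), where 14.9% of all tested genes were lower and 12.8% higher. Vcl lies outside it. Of the 29 tested genes within 2 Mb of Vcl, 3 (10.3%) were lower and 3 higher, with a median of 0.06. The stretch was taken up with earlier results known, and its cause was not tested.

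Zyxin recruits Ena/VASP proteins and α-actinin to adhesions and to damaged stress fibres. Zyx (chr6:42349630-42360213, plus strand) was at 15.33, 14.64 and 11.72 TPM in WT and at 1.65 and 2.18 TPM in C3G null samples. Scaled, it was at 11.03, 11.98 and 10.71 against 2.63 and 2.46. Both groups were tight and far apart, with C3G null cells at 22.7% of the WT mean. Zyx fell by 1.79 (SE 0.08, limma adjusted p = 6.31e-05) on the log2 scale of scaled TPM and by 2.35 as deposited, and 0.344% of the tested genes had a lower log2 fold change. The exons of Epha1, on the other strand, cover only 76 of the 2605 bases of Zyx-207, its main transcript. Epha1 was at 4.18, 3.85 and 3.77 TPM in WT and at 0.75 and 1.4 TPM in C3G null samples, and its part in the value of Zyx was not tested.

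In WT cells the scaled levels, which are per length and can be compared between genes, ran from Flna (77.5 ± 5.13) and Actn4 (73.9 ± 3.39) through Actn1 (34.6 ± 0.179), Vcl (26.1 ± 0.754) and Tln1 (22.5 ± 2.73) to Zyx (11.2 ± 0.657), Flnc (10.1 ± 0.480) and Tln2 (3.52 ± 0.172), all as scaled TPM (SD, n = 3). Flna and Actn4 overlapped, and all other neighbours in this order were separate in the 3 samples. In C3G null cells the order was Actn4 (54.9 ± 10.2), Flna (51.2 ± 3.50), Actn1 (18.3 ± 2.41), Vcl (14.5 ± 0.660), Tln1 (13.7 ± 5.11), Tln2 (4.11 ± 0.898), Zyx (2.55 ± 0.118) and Flnc (1.07 ± 0.0694), again as scaled TPM (SD, n = 2). There Actn4 overlapped with Flna, and Tln1 with both Vcl and Actn1. Tln2 moved from the lowest place to one above Zyx and Flnc, without overlap.

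Together the 8 genes summed to 258, 262 and 258 scaled TPM in WT and to 144 and 176 scaled TPM in C3G null samples. Flna and Actn4 made up the larger part of this sum in each sample. Flnc and Zyx shrank as a share of it, from 3.89% to 0.670% and from 4.33% to 1.61% of the group means, and Tln2 grew from 1.36% to 2.55%.

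The transcripts behind the gene sums moved unequally in some of the 8 genes. Flna-202 was at 65.37, 61.98 and 59.75 TPM in WT and at 23.70 and 36.82 TPM in C3G null samples, and its share of the gene went from 65.5% to 77.5%. Flna-203, a coding transcript of similar length, was at 5.37, 5.93 and 4.93 TPM in WT and at 0.20 and 0.57 TPM in C3G null samples. Flna-203 was thus nearly lost while Flna-202 was not, and with Flna-202 alone the fall of Flna was -0.35 and no longer passed (limma adjusted p = 0.0575). Zyx-207 went from 68.2% of the Zyx TPM to 53.5%, and Actn4-202, a coding transcript of 1594 bases, from 6.1% to 14.2% of the Actn4 TPM. Such shares were estimated from reads that several transcripts have in common, and the error of that estimate is unknown.

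Transcript length went with the fold changes across genes. Longer genes tended to lower values, with a Spearman correlation of -0.312 between length and log2 fold change across the 12518 genes, which are not independent replicates. Of the 1252 shortest genes 3.51% were lower in C3G null cells, and of the 1252 longest, of at least 4665 bases, 26.1% were lower, with medians of 0.27 and -0.10. Flna, Flnc, Tln1, Tln2 and Vcl belong to the longest. A smooth trend with length and GC content was therefore subtracted from each sample, which brought the correlation to 0.00745. After this correction 5 of the 8 genes were lower and 1 higher, beside 15.2% and 13.7% of all tested genes. Flnc (-2.04), Zyx (-1.61), Actn1 (-0.81), Vcl (-0.72) and Flna (-0.33) passed the test as lower, with a limma adjusted p of 0.0427 for Flna. Tln1 did not pass (-0.49, limma adjusted p = 0.0977), nor did Actn4 (-0.28, limma adjusted p = 0.0953), and Tln2 passed as higher (0.43, limma adjusted p = 0.0147). The part of RNA quality in the relation with length was not tested.

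**Figure D2:**
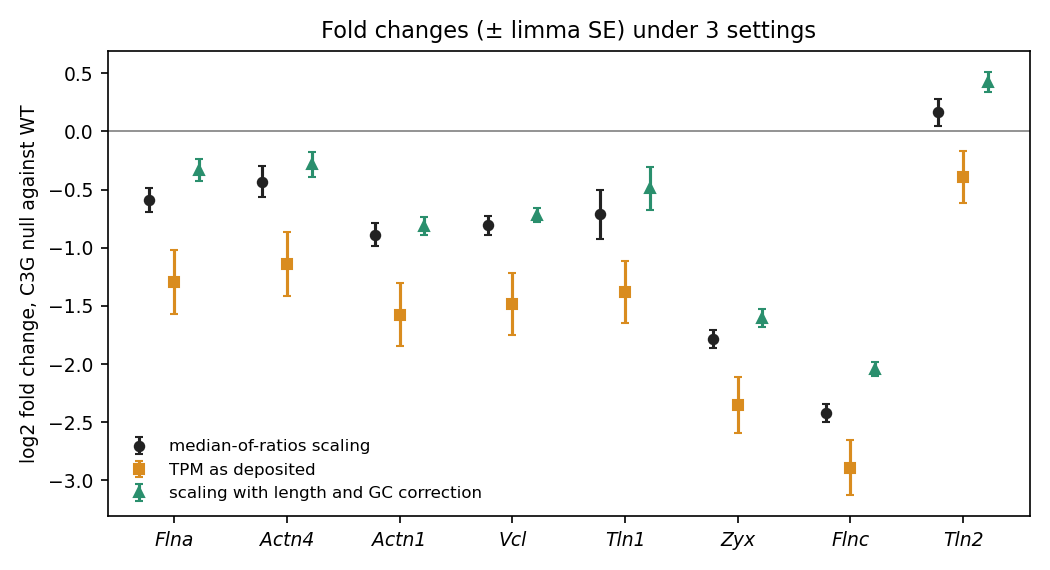
Log2 fold change of each linker gene, C3G null (n = 2) against WT (n = 3), after median-of-ratios scaling (circles), for TPM as deposited (squares) and with the length and GC correction (triangles), with bars for the standard error from limma. Flnc and Zyx lie lowest under each of the 3 settings, and Tln2 lies above 0 in the scaled settings and below 0 as deposited.

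The proteins that work beside the 8 genes were read from lists by function. Of 6 tested genes in a list of the muscle α-actinins and the zyxin-type LIM proteins, 3 were lower and 1 higher, beside 14.9% and 12.8% of all tested genes, with a median of -0.17. The median over all tested genes was 0.02, here and for the lists that follow. Lpp, the nearest relative of zyxin, was at 12.96, 10.87 and 9.29 TPM in WT and at 1.72 and 2.12 TPM in C3G null samples. Lpp fell by 1.47 (limma adjusted p = 0.000127). Ajuba, another LIM protein of adhesions and of Hippo signalling, fell by 1.38 (limma adjusted p = 0.000188), and lies within the stretch of chromosome 14 described above. Of 16 tested integrin-tail and adhesion adaptors 8 were lower and none higher (none also at an unadjusted p under 0.05 by limma), beside 14.9% and 12.8% of all tested genes, with a median of -0.33. They included Parva (-1.50), which ties integrin-linked kinase to actin, Tgfb1i1 (-1.33), the paxillin relative Hic-5, Fermt2 (-0.999), the kindlin that activates integrins together with talin, and Pxn (-0.40), paxillin itself, which are log2 fold changes of scaled TPM. Fermt2 also lies within that stretch of chromosome 14. Pxn did not pass with the length and GC correction (-0.20, limma adjusted p = 0.128), nor without WT sample 2 (limma adjusted p = 0.0634), C3G null sample 1 (0.0679) or C3G null sample 2 (0.0811). Of the 16 adaptors 4 passed the filter on low values through the WT samples alone, and 3 of these, with Parva and Tgfb1i1 among them, are among the 8 that were lower.

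Of 20 tested actin-side partners of zyxin, vinculin and α-actinin 10 were lower and 1 higher, beside 14.9% and 12.8% of all tested genes, with a median of -0.30. Fhl2 (-1.48) and Pdlim2 (-1.31), both LIM proteins that bind α-actinin or integrins, fell the most on the scale of log2(scaled TPM + 1). The order was not the same with TPM as deposited. Of the 20 partners 4 passed the filter on low values through the WT samples alone, and 3 of these, with Fhl2 and Pdlim2 among them, were lower. Pdlim2 and Sorbs3, which was also lower, lie within the stretch of chromosome 14. Vasp, which zyxin recruits, fell by 0.38 (limma adjusted p = 0.0341), and did not pass without WT sample 2 (limma adjusted p = 0.0961), WT sample 3 (0.0724), C3G null sample 1 (0.0636) or C3G null sample 2 (0.141). Csrp2, a LIM protein that binds α-actinin, rose by 0.70 with scaled TPM (limma adjusted p = 0.00805), where TPM as deposited gave -0.01. With the length and GC correction 10 of the 20 partners were lower and 3 higher, Csrp2 among the 3, beside 15.2% and 13.7% of all tested genes. Of the 7 filamin partners only 2 were tested, and neither passed, also at an unadjusted p under 0.05 by limma. With TPM as deposited both were lower, beside 56.8% of all tested genes. On that scale 17 of the 20 actin-side partners, 14 of the 16 adaptors and 5 of the 6 genes of the α-actinin and LIM protein list were lower. None of these lists had a higher gene there, beside 1.45% of all tested genes.

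Of 10 tested integrin subunits 9 were lower and none higher (none also at an unadjusted p under 0.05 by limma), beside 14.9% and 12.8% of all tested genes, with a median of -0.60. Among the 9 are 3, Itga1, Itga8 and Itgb4, that passed the filter on low values through the WT samples alone. With TPM as deposited all 10 were lower, beside 56.8% of all tested genes. Itgb1, the β subunit shared by most integrins that talin activates, was at 50.25, 48.55 and 43.61 TPM in WT and at 13.25 and 21.47 TPM in C3G null samples. Both C3G null samples were far below WT, and Itgb1 fell by 0.74 with scaled TPM (limma adjusted p = 0.00279). Itga3, the laminin-binding α3 subunit, fell by 2.56 (limma adjusted p = 2.39e-05) and Itgb4 by 0.90 (limma adjusted p = 0.00101).

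Of 23 tested actins, non-muscle myosin II genes and SRF-driven actin-binding genes 17 were lower and none higher (none also at an unadjusted p under 0.05 by limma), beside 14.9% and 12.8% of all tested genes, with a median of -0.59. Among the 17 are 3, Acta1, Acta2 and Actc1, that passed the filter on low values through the WT samples alone. With TPM as deposited all 23 were lower, beside 56.8% of all tested genes. Acta2, smooth muscle α-actin, was at 16.88, 17.01 and 14.55 TPM in WT and at 0.09 and 0.17 TPM in C3G null samples. Tagln, transgelin, was at 32.31, 34.26 and 32.54 TPM in WT and at 1.02 and 1.45 TPM in C3G null samples. Acta2 was thus close to absent in C3G null cells and Tagln low, with log2 fold changes of scaled TPM of -3.59 (limma adjusted p = 6.31e-06) and -3.40 (limma adjusted p = 2.1e-05). They are also the leading genes of the smooth muscle marker list, whose 7 genes summed to 55.5, 57.7 and 53.4 TPM in WT and to 3.14 and 4.60 TPM in C3G null samples, with Tagln the most abundant and none at 0 in all samples, and of which 3 of 4 tested genes were lower, beside 14.9% of all tested genes, while Des did not pass the test (-0.24, limma adjusted p = 0.0647). The smooth muscle markers Myh11 and Lmod1 and the γ form Actg2 stayed under the filter, at up to 0.33 TPM, and the part of cells of that type in the linker genes was not tested. The cytoplasmic actins were far more abundant. Actb was at 1288, 1257 and 1223 TPM in WT and at 506.11 and 734.01 TPM in C3G null samples, and with scaled TPM neither Actb (-0.32, limma adjusted p = 0.18) nor Actg1 (-0.38, limma adjusted p = 0.0778) passed the test. Both calls depend on the processing. With the length and GC correction both passed as lower, Actb at -0.37 (limma adjusted p = 0.0492) and Actg1 at -0.42 (limma adjusted p = 0.0196). Both also passed, with larger falls, with scaling to protein-coding TPM (Actb -0.57, limma adjusted p = 0.00833, and Actg1 -0.62, limma adjusted p = 0.00341), with quantile normalization (Actb -0.85, limma adjusted p = 0.00403, and Actg1 -0.92, limma adjusted p = 0.00117) and with TPM as deposited (Actb -1.04, limma adjusted p = 0.000592, and Actg1 -1.10, limma adjusted p = 0.000425). Actg1 alone passed with limma without the trend (limma adjusted p = 0.0209) and with protein-coding transcripts only, a choice made after seeing the data (limma adjusted p = 0.0272). Srf fell by 0.45 with scaled TPM (limma adjusted p = 0.0076) and by 0.25 with the length and GC correction (limma adjusted p = 0.0237).

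**Figure D3:**
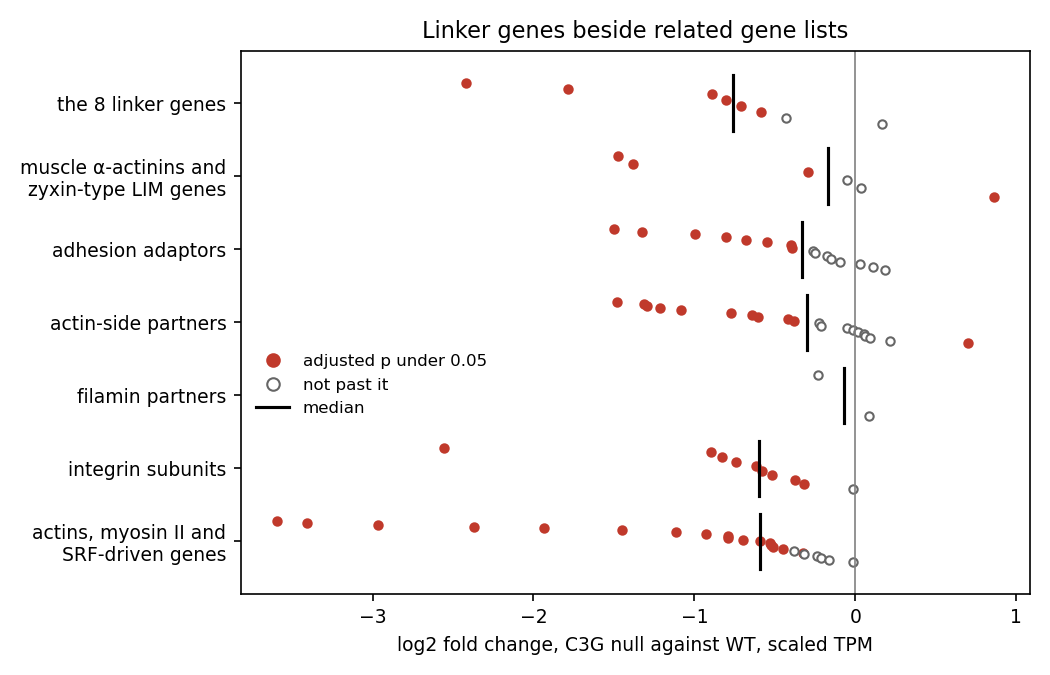
Log2 fold change of scaled TPM (C3G null, n = 2, against WT, n = 3) of each tested gene in the 8 linker genes and in 6 related lists, with filled points for genes past the threshold of 0.05 in limma's adjusted p, open points for the others and black lines at the medians. The list medians lie between -0.76 and -0.07, where the median of all tested genes was 0.02.

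By the shape of their values over the 5 samples, the genes nearest to the mean of the 8 linker genes, among 6721 genes with a mean of at least 5 scaled TPM, were Cul7, Myh9, Sucla2, Peg3 and Junb, at distances from 0.0748 to 0.104 on the log2 scale. Myh9, the heavy chain of non-muscle myosin IIA, which pulls on the same filaments, was at 33.8, 33.5 and 30.4 scaled TPM in WT and at 14.7 and 18.9 scaled TPM in C3G null samples. Sucla2 lies in the stretch of chromosome 14 described above. With 3 samples against 2, such likeness mostly reflects the difference between the groups.

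The promoters of the linker genes were read for the CArG box, through which SRF acts. RefSeq promoters of build GRCm38.p6, from 250 bases before to 50 bases after the gene start, were found for 7 of the 8 genes, not for Tln2. The RefSeq start lay 272 bases from the start of the most abundant transcript of Actn1 and 161 bases from that of Tln1, so those windows do not cover the start of that transcript, and it was at most 20 bases from it in the other 5 genes, for the nearer of the 2 windows of Flnc. On either strand a CArG box was present in 535 of 32851 promoters (1.63%), in Vcl alone of the 7 genes, and in 6 of 21 genes of the actin and SRF list. The windows of 30 bases around the box of Vcl (chr14:20929161-20929190, plus strand) and those of Actg1 (chr11:120348566-120348595, minus strand) and Srf (chr17:46556225-46556254, minus strand, the upstream of its 2 boxes) hold CArG boxes, in capitals, that differ in their inner letters, each written 5′ to 3′ on the strand of its gene.
Vcl: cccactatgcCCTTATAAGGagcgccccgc
Actg1: ggaaagatcgCCATATATGGacatgttctg
Srf: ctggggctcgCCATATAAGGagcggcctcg

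The letters GGAATG, which match the core that TEAD factors bind, were present on either strand in 14.7% of all promoters and in those of Actn4, Flna, Flnc and Vcl. The Vcl promoter is printed whole (chr14:20929148-20929447, plus strand, GRCm38.p6) because it holds both motifs, with each in capitals, first the CArG box and then GGAATG. A match is only a match of letters, and its absence says only that these letters are not in the window. The part of SRF or of TEAD factors in the values of the linker genes was not tested.
Vcl promoter: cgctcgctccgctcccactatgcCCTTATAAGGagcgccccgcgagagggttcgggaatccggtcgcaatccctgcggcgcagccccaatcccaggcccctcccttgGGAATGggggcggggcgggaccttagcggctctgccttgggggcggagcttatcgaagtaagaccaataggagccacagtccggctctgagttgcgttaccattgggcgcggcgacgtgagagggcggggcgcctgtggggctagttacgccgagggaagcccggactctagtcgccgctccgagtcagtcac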

How the data were processed

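Total RNA of 3 WT and 2 C3G null samples was sequenced as paired-end reads. The deposited table holds TPM for 142647 Ensembl transcripts, which the authors made from reads aligned to GRCm38. The submitters' processing notes name bcl2fastq 2.20, FastQC 0.11.7, STAR 2.5.1b and RSEM 1.2.31. Read numbers are not part of TPM, so depth is unknown, counting error could not be estimated and the study's DESeq2 test was not run. GENCODE M21 matched 141524 transcripts, 1123 were not matched, and TPM were summed per gene symbol (113 symbols hold more than 1 gene).

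Genes of at least 1 TPM in at least 2 samples were kept. TPM were scaled by median of ratios over the 22981 genes above 0 in all samples, and WT and C3G null groups were compared with limma 3.58.1 in R 4.3.3 on log2(scaled TPM + 1). The fit had a mean-variance trend, and its two-sided p-values had Benjamini-Hochberg adjustment over all tested genes and a threshold of 0.05. limma's prior degrees of freedom came to 3.74 for scaled TPM. For TPM as deposited they were infinite, so that the trend alone set the variance of a gene there.

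The alternatives were TPM as deposited, scaling to protein-coding TPM, quantile normalization, a filter of 5 TPM or none, pseudocounts of 0.1 and 5, limma without the trend, leaving out each sample, a block for replicate number, a loess correction (span 0.5) for length and GC content, and the block with that correction. Protein-coding transcripts alone and the most abundant transcript alone were added after seeing the data. The 8 genes, the lists and the tests were chosen with earlier results of these data known. Genes named are the 8, Rapgef1, from each functional list the 2 genes that fell most and the 2 that rose most among those past the threshold, genes fixed by name (Actn2, Actn3, Itgb1, Pxn, Fermt2, Vasp, Actb, Actg1 and Srf, while 1 more is not reported here), the 5 nearest in profile, and transcripts of at least 5% of a gene. Pou5f1, Esrrb, Des, Cdx2, Krt7, Acta1, Actc1, Sorbs3, Itga1, Itga8, Ap3m1, Capn12, Creb3, Epha1 and the low muscle markers were named after their values were seen. Of the other marker lists, 3 of 4 tested trophoblast genes (2 of which, Cdx2 and Krt7, passed the filter through the WT samples alone), 1 of 3 neuroectoderm genes and 1 of 1 mesoderm genes were lower, 2 neuroectoderm genes and 1 of 1 endoderm genes were higher, beside 14.9% lower and 12.8% higher of all tested genes, and Neurog2 alone was at 0 in all samples. Likeness was the Euclidean distance of centred log2(scaled TPM + 1). Ratios within samples were compared with the exact permutation test of SciPy 1.17.1. Python 3.11.15 with pandas 2.3.3 served for tables and matplotlib 3.10.9 for plots. Protein sequences were not used here.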

Additional observations from a re-analysis of the deposited data

How the results depend on the processing

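Over 18 alternatives Flnc, Zyx, Actn1 and Vcl were lower and past the threshold each time, with log2 fold changes from -3.17 to -1.31, from -2.35 to -1.11, from -1.57 to -0.76 and from -1.48 to -0.67. Flna was lower in all 18 and passed in 16, the exceptions being the most abundant transcript alone (-0.35) and the replicate block with the length and GC correction (-0.26, limma adjusted p = 0.089). Tln1 was lower in all 18 and lost its call in 8, among them leaving out WT sample 1 (limma adjusted p = 0.11), WT sample 2 (0.0752) or C3G null sample 1 (0.174). Actn4 was lower in all 18 and passed in 6. Tln2 was -0.39 with TPM as deposited, -0.0357 with scaling to protein-coding TPM, -0.0622 with the most abundant transcript alone and from -0.0126 (without C3G null sample 2) to 0.356 (without C3G null sample 1) when a sample was left out, and Csrp2 was -0.0124 with TPM as deposited. The count of linker genes lower was 4 to 7 over all settings and 5 to 7 when a sample was left out, with 0 higher in each of these; 1, Tln2, was higher with the length and GC correction, with or without the block. Of all tested genes, 1868 were lower and 1603 higher with scaled TPM, 7109 and 181 as deposited, and 3753 and 702 with scaling to protein-coding TPM. With a filter of 5 TPM, which tests fewer genes, 972 were lower and 1134 higher. With protein-coding transcripts only, 2160 were lower and 2211 higher. Leaving out a sample gave 1180 to 1679 lower and 742 to 1632 higher. The counts moved most without C3G null sample 1 (1180 lower, 957 higher), without C3G null sample 2 (742 higher) and without WT sample 2 (937 higher). When a C3G null sample is left out the lone sample is assumed to vary like the WT group. The replicate block gave 1697 lower and 1800 higher, and 7 linker genes lower, Actn4 added. Vasp lost its call with the block (limma adjusted p = 0.0681) and with the block and the length and GC correction (0.124). The same held with no filter (limma adjusted p = 0.0716) and with the most abundant transcript alone (0.0681). The labels do not say that replicate numbers pair the samples. Deviations of same-numbered samples correlated at -0.172 and 0.183 over 2 pairs. With 2 C3G null samples their deviations mirror each other, so these correlations cannot decide whether the samples are paired. The cause of these changes was not tested. With 2 C3G null samples, unknown depth and a share of small and ribosomal RNAs that moved with genotype, the size of each fall depends on the scaling.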
